A study of Mus musculus with 16 samples.

Results

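The replication-dependent histone genes encode the H1, H2A, H2B, H3 and H4 proteins that package newly copied DNA. They were taken as all protein-coding genes of GENCODE M21 whose symbol starts with Hist1h, Hist2h, Hist3h or Hist4h, which gave 67 of 21938 protein-coding genes. Of these, 54 lay in the Hist1 cluster on mouse chromosome 13, 10 in the Hist2 cluster on chromosome 3, 2 in the Hist3 cluster on chromosome 11 and 1, Hist4h4, on chromosome 6. The genes encoded 6 H1, 18 H2A, 18 H2B, 12 H3 and 13 H4 histones.

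Most messenger RNAs end in a poly(A) tail, but those of replication-dependent histones end just behind a short stem-loop that is bound by SLBP. The genes lack introns, sit in clusters, are often arranged as divergent H2A and H2B pairs with one shared promoter region, and are transcribed in S phase under the coactivator NPAT. Cells that leave the cell cycle, as myoblasts do when they differentiate, are known to stop making these histones and to rely on replication-independent variants such as H3.3.

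Accessible chromatin was mapped by ATAC-seq in C2C12iMyoD1, a polyclonal population of the mouse myoblast line C2C12 that carries an integrated doxycycline-inducible Halo-MyoD1 transgene beside its endogenous Myod1 gene. Cells were treated for 24 h with dox or with vehicle (no dox), and were either kept proliferating in growth medium (GM) or differentiated over the same 24 h by serum starvation (DM), with 4 libraries in each of the 4 groups. Differentiating wells started from 300000 cells and proliferating wells from 75000, so medium and density cannot be told apart. Every group carried the transgene, dox reached cells that also expressed endogenous MyoD1, and not every nucleus of the population responds to dox, so a group is a mixture of induced and uninduced cells. The labels number 4 biological replicates per group without saying what was cultured separately, so p-values measure the spread between these libraries.

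The deposited data were 1 narrow peak list per library. Replicate 1 of both DM groups, which the study's methods set aside as outliers, was left out (1287 peaks without dox and 14236 with dox), and the 14 kept lists held 14710 to 58587. Each kept list was therefore cut to its 14710 strongest peaks. A gene's value in a library was the within-list rank percentile of its strongest peak within 1 kb of a transcript start, so that 90 means stronger than 90% of the peaks of that list and 0 means no peak. Among myoblast markers, Myod1 and the acetylcholine receptor gene Chrna1 had a promoter peak in all 14 equal-length lists. The transgene also holds the coding sequence of Myod1. Cdh15 had a peak in 3 of these lists, and Myf5, Des, Pax7, Itga7 and Myog in none. Among all deposited peaks Des had one in 13 lists, Cdh15 in 10, Pax7 in 9, Myf5 in 6, Itga7 in 4 and Myog in none. None of the 13 leukocyte, endothelial, epithelial and pluripotency markers had a peak in an equal-length list, although among all deposited peaks the endothelial genes Pecam1 and Tek had one in 8 and 1 lists.

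The sequences bore out the class label. A 6-base stem and a 4-base loop of the histone kind was found within 150 bases after the stop codon in 63 of 67 members (94.0%), against 69 of 21664 protein-coding genes with an annotated stop codon (0.319%). The other 6 genes with it were Cdc40, Dgkq, H2afx, H2bfm, Tal1 and Ttc14, of which H2afx encodes the variant H2A.X. No match was found for Hist1h2an, Hist1h3g, Hist1h4a and Hist2h2be. The 6 forms are shown because they are the feature that sets these genes apart, written 5′ to 3′ as DNA of the GRCm38 assembly with the paired stem in capitals and with 1 gene that carries each.
Hist1h1a: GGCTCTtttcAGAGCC
Hist1h1t: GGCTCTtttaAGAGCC
Hist1h4c: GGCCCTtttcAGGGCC
Hist1h4i: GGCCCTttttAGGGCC
Hist1h4b: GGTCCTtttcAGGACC
Hist2h2ac: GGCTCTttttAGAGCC
The first form was found in 41 members, the second in 9, the third in 8, the next pair of forms in 2 each and the last in 1.

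The promoter sequences were searched for known elements. In the 300 bases from 250 before to 50 after the start, CCAAT was present on either strand in 83.6% of members and 36.8% of all genes, TATAAA in 55.2% and 13.4%, and the octamer ATTTGCAT, the element read by POU2F1, in 22.4% and 1.74%. The octamer was found in 7 of 18 H2A and 8 of 18 H2B promoters and in none of the H1, H3 and H4 promoters. CCAAT was in all 36 H2A and H2B promoters but in 4 of 13 H4 promoters. The MyoD1 E-box CAGCTG was in 8.96% of members and 15.9% of all genes, and the AP-1 site TGACTCA in no member and 4.48% of all genes. Median promoter GC content was 45.7% for members and 55.3% for all genes. A match is a description of these letters and does not show that a factor binds.

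The 3 spacers below lie between divergent H2A and H2B genes and are shown as the promoter that ranked highest, the promoter with the lowest exact permutation p between GM and DM, and the promoter of the testis-type pair, which had no peak. Each is given on the plus strand of GRCm38 (mm10) with the CCAAT box, the TATA box and the octamer, or their reverse complements, in capitals. The first is the whole spacer between Hist1h2ac (chr13:23681467-23683948, minus strand) and Hist1h2bc (chr13:23684199-23692908, plus strand). The second is 300 of the 301 bases between Hist1h2ah (chr13:22035164-22035568, minus strand) and Hist1h2bk (chr13:22035870-22036345, plus strand), and the third is 300 of the 305 bases between Hist1h2ba and Hist1h2aa.
Hist1h2ac and Hist1h2bc, chr13:23683949-23684198: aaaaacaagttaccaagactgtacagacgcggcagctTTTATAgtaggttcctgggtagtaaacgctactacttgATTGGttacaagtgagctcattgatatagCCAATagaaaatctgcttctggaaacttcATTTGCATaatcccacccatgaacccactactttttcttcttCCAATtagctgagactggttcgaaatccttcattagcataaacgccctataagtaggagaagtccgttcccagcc
Hist1h2ah and Hist1h2bk, chr13:22035569-22035868: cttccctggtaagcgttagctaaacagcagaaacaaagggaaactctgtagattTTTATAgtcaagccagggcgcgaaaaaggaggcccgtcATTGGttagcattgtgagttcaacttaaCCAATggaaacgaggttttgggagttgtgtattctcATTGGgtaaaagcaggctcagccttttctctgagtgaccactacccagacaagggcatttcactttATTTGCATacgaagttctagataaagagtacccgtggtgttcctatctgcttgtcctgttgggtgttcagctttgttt
Hist1h2ba and Hist1h2aa, chr13:23934157-23934456: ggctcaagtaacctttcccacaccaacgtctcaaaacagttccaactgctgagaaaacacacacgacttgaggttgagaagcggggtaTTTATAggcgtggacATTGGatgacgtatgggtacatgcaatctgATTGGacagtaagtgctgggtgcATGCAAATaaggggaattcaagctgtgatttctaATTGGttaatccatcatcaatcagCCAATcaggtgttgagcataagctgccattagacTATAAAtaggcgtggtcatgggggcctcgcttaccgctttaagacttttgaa
The first 2 spacers held 3 CCAAT boxes, 1 TATA box and 1 octamer each. The third held 4 CCAAT boxes, 2 TATA boxes and 1 octamer, so the pair without a peak had no fewer of these letters.

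Promoter accessibility was unevenly spread over the class. In the equal-length lists 11 of 67 members (16.4%) had a promoter peak in all 14 libraries, 26 in some and 30 (44.8%) in none, and 18.2% of all protein-coding genes had one in all 14 and 55.5% in none. H4 genes, which encode a single protein from many copies, had no member with a peak in all 14 libraries but 10 of 13 with a peak in some. Of the H1 genes, which encode the linker histones, only Hist1h1c had a peak in any equal-length list, and its strongest summit lay past the stop codon. A peak in all 14 was found for 2 H2A, 5 H2B and 3 H3 members. Of these H3 members, Hist1h3f and Hist1h3c took the peak of a neighbouring H2B gene. Among all deposited peaks 24 members (35.8%) had a promoter peak in all 14 libraries, against 26.0% of all genes, and 28 members (41.8%) had none in any of the 16 lists, against 41.6% of all genes. By that measure 3 of 13 H4 genes had a peak in all 14 libraries and 3 (23.1%) had none in any list. Each of the remaining H4 genes had one in 13 of the 14 kept libraries. The exception was always GM no dox replicate 1, the shortest kept list at 14710 peaks.

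**Figure D1:**
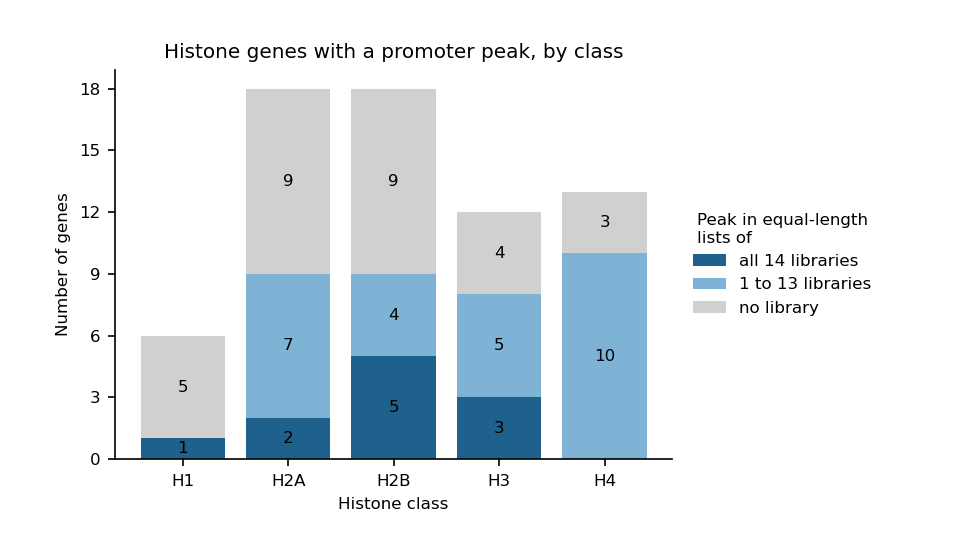
Number of histone genes (vertical axis) by class, split by whether a peak lay within 1 kb of a transcript start in the equal-length lists of all 14 kept libraries, of 1 to 13, or of none. In these lists H4 has no gene with a peak in all 14, against 3 of 13 among all deposited peaks. The H3 genes Hist1h3f and Hist1h3c are counted through the peak of a neighbouring H2B gene. Only 1 of 6 H1 genes has a peak, with its summit past the stop codon.

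The members without a peak lay together. All 10 Hist2 genes (Hist2h2ab, Hist2h2ac, Hist2h2be, Hist2h3c2, Hist2h2aa2, Hist2h2aa1, Hist2h3c1, Hist2h4, Hist2h3b and Hist2h2bb) fell in a stretch of 121 kb (chr3:96181410-96302855, mm10) that held no peak in any of the 16 lists. A stretch of 104 kb (chr13:21750874-21855089) did the same for 12 Hist1 genes: Hist1h2ak, Hist1h2bn, Hist1h1b, Hist1h3i, Hist1h2an, Hist1h2bp, Hist1h2bq, Hist1h2ao, Hist1h4m, Hist1h4n, Hist1h2ap and Hist1h2br. Of all protein-coding genes, 22.0% and 23.5% start in a peak-free stretch at least as long as these. A further stretch of 68.3 kb (chr13:23586145-23654480) held the linker histone gene Hist1h1e and the annotated start of Hist1h2be. The testis-type pair Hist1h2ba and Hist1h2aa lay in one of 102 kb (chr13:23916522-24018576), and the testis-specific linker histone gene Hist1h1t in one of 12.7 kb. Hist1h1d started in a gap of 3.05 kb between peaks.

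Some of these genes have near-identical copies, whose reads cannot be placed. Over the 2 kb around a gene's start, the median share of 100-base tiles that mapped uniquely was 85% for members and 100% for all genes, and 10 members had 50% or less: Hist1h2bq, Hist1h2ao, Hist1h4m, Hist1h4n, Hist1h2ap, Hist1h2br, Hist2h3c1, Hist2h3c2, Hist2h2aa1 and Hist2h2aa2. None of those 10 had a peak in any list. Among the other peak-free members, Hist2h4, Hist1h1b, Hist1h1d, Hist1h1t, Hist1h2aa and Hist1h2be mapped at 100% of tiles. Hist2h2ab, Hist2h2ac, Hist2h2be, Hist1h1e, Hist1h2ak and Hist1h2ba mapped at 95%. The authors removed peaks over a blacklist of problem regions, and the part of repeated sequence or of the blacklist in these stretches was not tested.

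**Figure D2:**
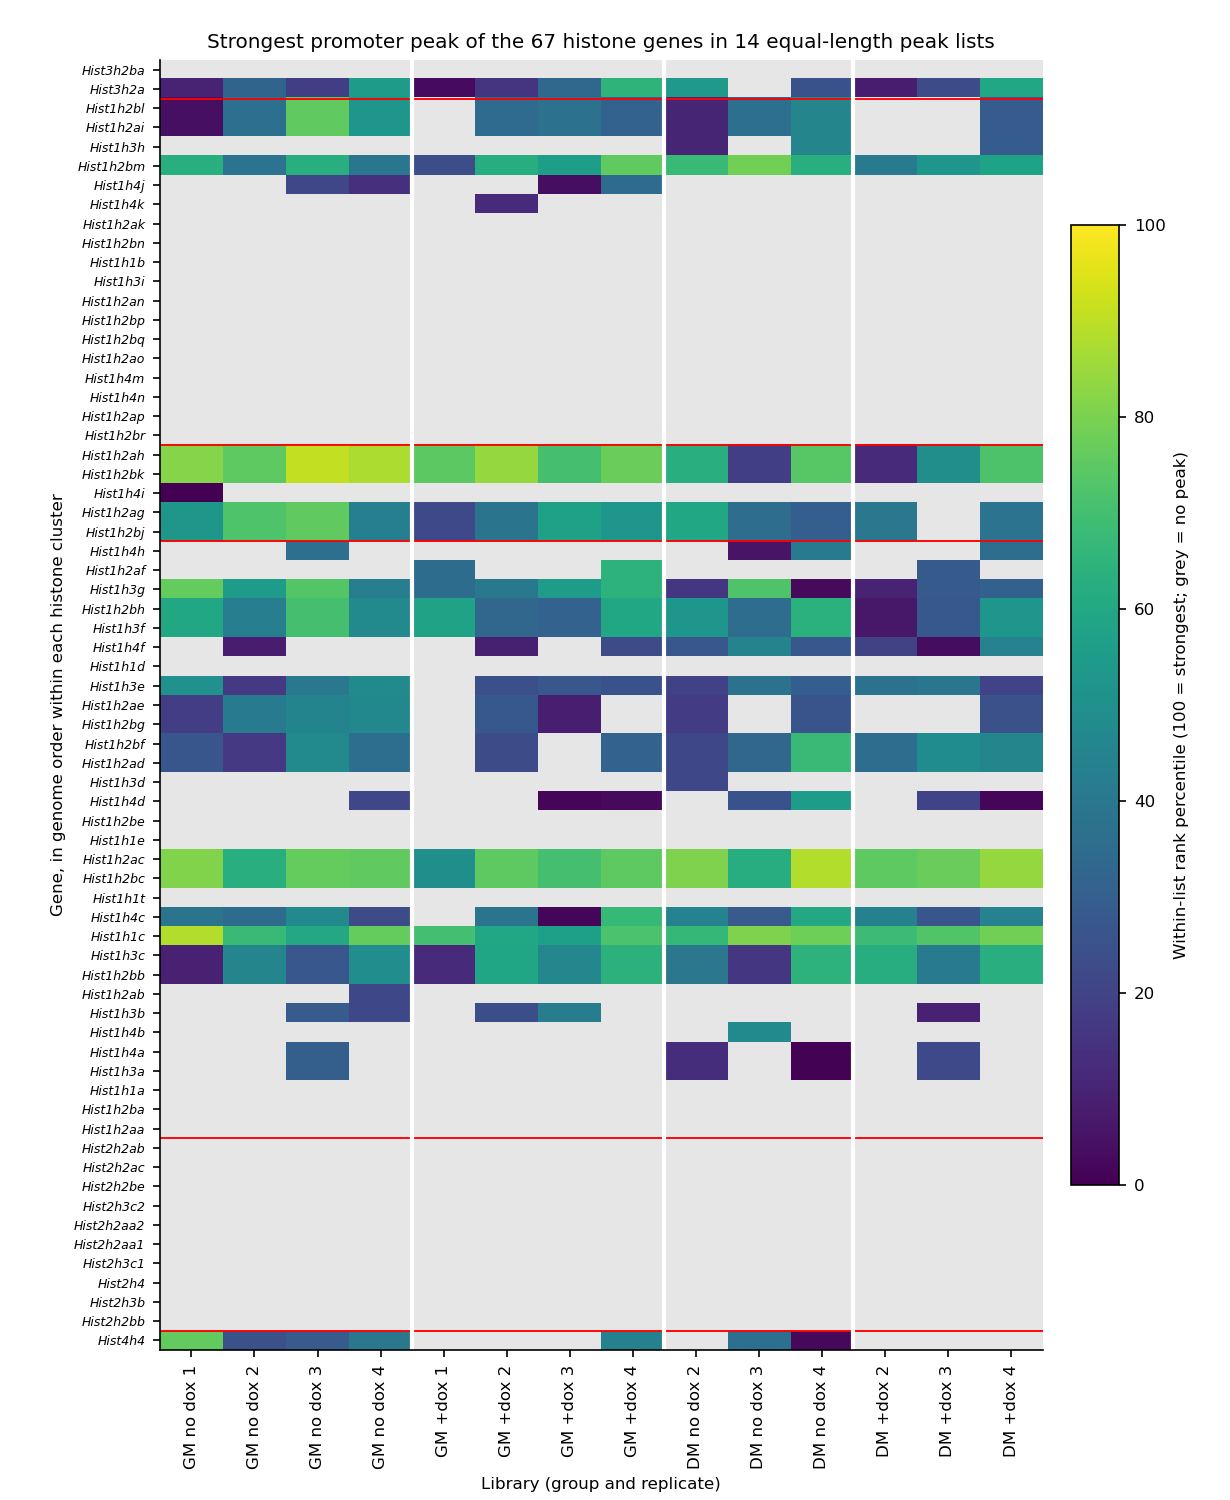
Within-list rank percentile (colour, 100 strongest) of each histone gene's strongest promoter peak (rows, in genome order, red lines between clusters and cluster parts) in the 14 kept libraries (columns). Grey cells have no peak: they fill the Hist2 block and 12 adjoining Hist1 rows, while Hist1h2ac, Hist1h2bc, Hist1h1c, Hist1h2ah and Hist1h2bk are coloured in every library.

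Neighbouring genes often shared 1 peak. In 9 pairs, 8 of them divergent, both genes took the same strongest peak in every library in which either had one, and these pairs held 18 members. A library's members with a peak, 15 to 29 of 67 in the kept libraries, therefore rested on 9 to 19 distinct peaks, and the values of paired genes are the same measurement. Of the 32 members tested, 24 had a median summit within 300 bp of the start, and 26 had it upstream. Hist1h3c (at −970 bp) and Hist1h3f (at −543.5 bp) took the peak of the neighbouring H2B gene, Hist1h2bb and Hist1h2bh. Other tested members also had only a neighbour's peak. These were Hist1h3h (at −1293 bp, from Hist1h2bl and Hist1h2ai), Hist1h2af (at 1372 bp, from Hist1h3g) and Hist1h3a (at 1022.5 bp, from Hist1h4a).

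The highest ranked promoter was that of Hist1h2ac and Hist1h2bc. It lay at the 81.0, 62.9, 76.3 and 75.6 percentiles in GM no dox, at 49.8, 75.3, 70.5 and 75.3 in GM +dox, at 80.8, 62.3 and 88.4 in DM no dox and at 75.4, 77.2 and 84.2 in DM +dox. It lay above 50 in 13 of 14 libraries, with GM +dox replicate 1 lowest at 49.8, and its fold enrichment over background ranged from 7.46 to 21.8. Without dox the groups overlapped. With dox the DM values lay just above those of GM, by a mean of 11.2 (limma, adjusted p = 0.817).

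Hist1h1c, a somatic linker histone gene, followed at 88.4, 67.4, 60.3 and 76.2 in GM no dox, 70.3, 59.6, 56.4 and 71.5 in GM +dox, 66.5, 80.8 and 77.8 in DM no dox and 68.4, 73.0 and 78.8 in DM +dox. The groups overlapped. Its strongest summit did not lie at the start (chr13:23738808-23740367, plus strand) but 876 to 982 bp downstream of it, 197 to 303 bp past the stop codon in the 3′ untranslated part of the exon, in all 14 libraries. That peak reached back over the start in 7 libraries. In 5 libraries, 3 of 3 DM +dox, 1 of 3 DM no dox and 1 of 4 GM +dox, a separate weaker peak sat at the start. Of the other H1 genes, Hist1h1a had a promoter peak only among all deposited peaks, in 11 of 14 kept libraries.

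The highest H3 members were the peaks of Hist1h3f, which it shared with Hist1h2bh, and Hist1h3g, with mean percentiles of 45.8 and 43.1. Among H4 genes, Hist1h4c came first with a mean of 35.7, and Hist4h4 followed with 18.0. Hist1h4c lacked a peak only in the equal-length list of GM +dox replicate 1. Among all deposited peaks both H4 genes had one in all 14 kept libraries. In the Hist3 cluster, Hist3h2a had a peak in 13 of 14 libraries, at a mean percentile of 28.8, while its neighbour Hist3h2ba had none in the equal-length lists and 3 among all deposited peaks. The 32 members tested had a median of mean percentiles of 30.3, against 46.5 for the 8755 genes tested.

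The share of members with a promoter peak was compared between proliferating and differentiating cells. It was 38.4% ± 3.08 (SD, n = 4) in GM no dox, 32.8% ± 7.11 (n = 4) in GM +dox, 39.8% ± 3.76 (n = 3) in DM no dox and 33.3% ± 5.24 (n = 3) in DM +dox. The shares over all protein-coding genes were 32.1% ± 3.29, 31.7% ± 4.11, 34.2% ± 2.57 and 34.9% ± 3.70 in the same order. DM minus GM, averaged over the dox arms, was 0.933 percentage points for members and 2.64 for all genes, and the members' difference was smaller than the pooled SD between libraries of 5.13. By replicate number the members' difference was 1.49 within 1 and 2, with 1 kept DM library per arm, and −0.746 within 3 and 4. Among all deposited peaks the groups spanned 49.3% ± 9.28 (GM no dox) to 56.0% ± 1.49 (GM +dox) of members. Over all protein-coding genes the shares of the same groups were 43.9% ± 11.8 and 52.4% ± 1.30. The number of deposited peaks differed as well, with means of 31702 and 46863. GM no dox replicate 1, with 14710 peaks, had the lowest share of members among the kept libraries, 35.8%.

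**Figure D3:**
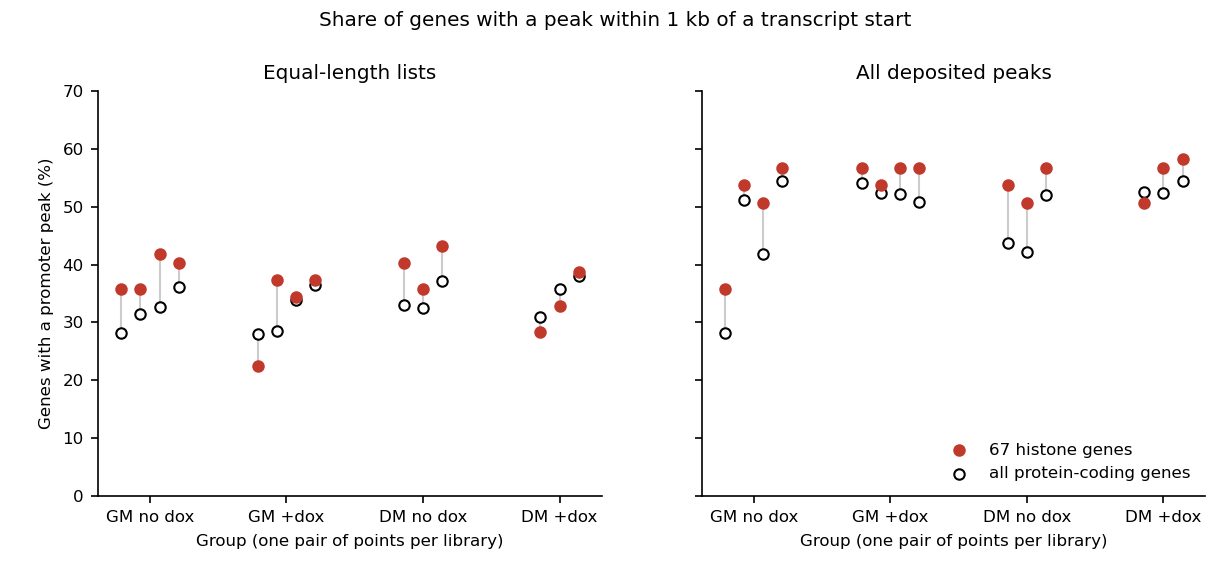
Percent of genes with a peak within 1 kb of a transcript start in each kept library, for the 67 histone genes (red) and all protein-coding genes (open), joined by a line per library, in equal-length lists (left) and all deposited peaks (right). The histone shares of GM and DM overlap in both panels, and GM +dox replicate 1 is lowest on the left at 22.4%.

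The median percentile over the 32 members tested was 37.2 ± 10.6 in GM no dox, 27.5 ± 20.1 in GM +dox, 32.6 ± 12.1 in DM no dox and 23.9 ± 14.6 in DM +dox. Over all 8755 genes tested it was 45.8 ± 11.1, 45.5 ± 12.7, 53.8 ± 6.34 and 55.2 ± 9.24. DM minus GM was −4.10 for the members and 8.84 for all genes tested. For the members it was −7.21 within replicate numbers 1 and 2, with 1 kept DM library per arm, and −7.54 within 3 and 4. The members' difference was within the pooled SD between libraries of 15.1, which takes no account of the replicate numbers and is not a standard error of the difference. The GM side also held replicate 1 of both arms, at 22.5 without dox and 0 with dox, for which no DM library of that number was kept. Among same-numbered libraries, the members' median was lower in DM in 3 of 3 pairs with dox (8.77 against 30.2, 24.9 against 31.5 and 38.0 against 48.3). It was lower in 2 of 3 without dox (21.5 against 36.7, 30.9 against 46.4 and 45.4 against 43.2). Over the 6 pairs the mean of DM minus GM was −11.1 (SD 8.27). The median over all genes tested was higher in DM in 6 of 6 pairs. The numbers met the check for pairing with dox and not without dox, and no test was run on these pairs.

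Each gene was then tested across all 8755 genes with limma. No member passed an adjusted p of 0.05 between DM and GM over both dox arms, where 31 genes (0.354%) did, 12 higher and 19 lower in DM. That split depended on the scale: it was 3 and 0 on the log2 rank and 9 and 2 with all deposited peaks. At an unadjusted p under 0.05 there were 6 of 32 members, 3 higher and 3 lower, against 13.1% of all genes tested, and the exact permutation test placed 4 of 32 members, against 13.1% of all genes, under 0.05 before adjustment and 0 after. Both counts take genes that share 1 promoter peak separately. The median difference was 0.440 percentile points for members (between −3.84, leaving out DM no dox replicate 2, and 2.14, leaving out replicate 4 of GM +dox) and 5.47 for all genes tested, and 16 members were above 0 and 16 below, where 75.1% of all genes were above. No member had all 6 DM libraries outside the range of the 8 GM libraries, as 0.525% of genes did. The weakest peak kept had a −log10 p of 3.94 to 41.4 in GM and of 11.7 to 54.6 in DM, ranges that overlap, and the deposited lists held a mean of 39283 and 39258 peaks. The part of either in the differences was not tested.

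**Figure D4:**
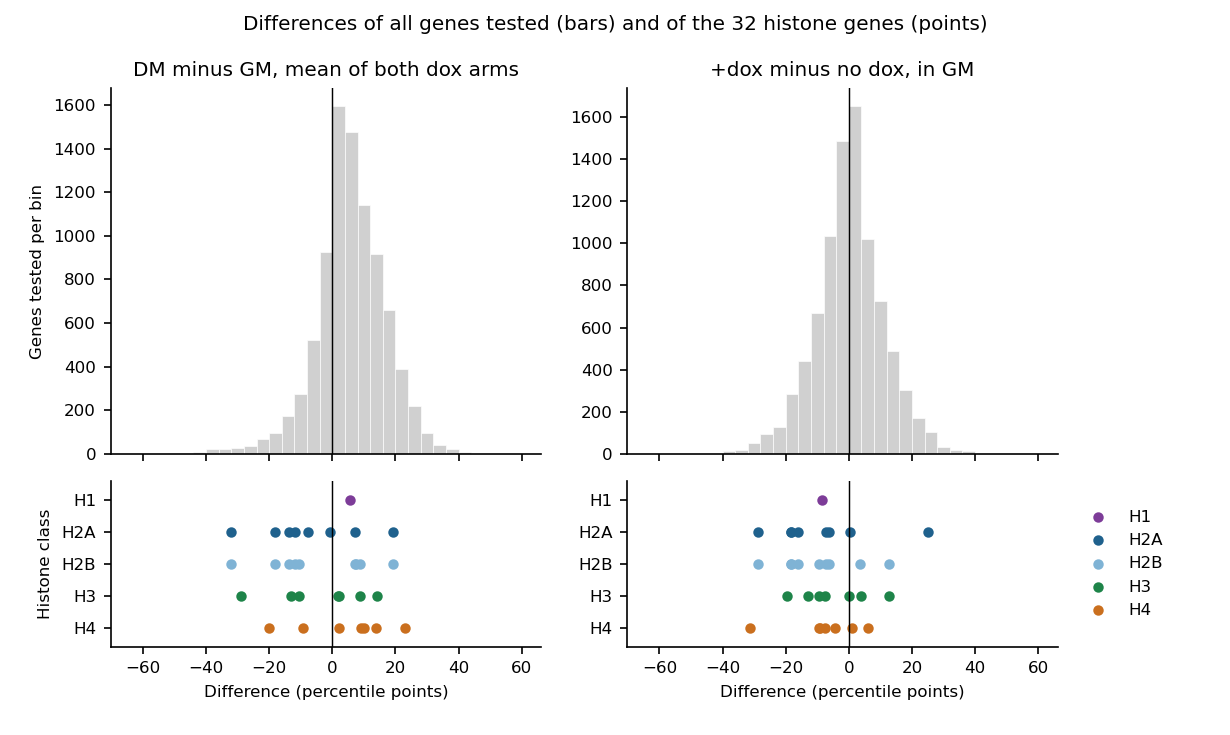
Differences in rank percentile for all 8755 genes tested (grey bars, genes per bin of 4 points) and for the 32 histone genes tested (points, by class), for DM minus GM over both dox arms (left) and +dox minus no dox in GM (right). On the left the bars centre above 0, with a median of 5.47, and the points are split 16 to 16 around 0.

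The member with the lowest p was Hist1h4f (chr13:23551258-23551648), an H4 gene. In GM no dox its promoter lay at 0, 7.65, 0 and 0, in GM +dox at 0, 8.73, 0 and 22.7, in DM no dox at 27.3, 44.9 and 27.3 and in DM +dox at 19.5, 3.30 and 44.4. In the equal-length lists it had a peak in all 6 DM libraries and in 3 of 8 GM libraries, and the 2 sides overlapped only through the dox arm. Among all deposited peaks it had one in 3 of 4 GM no dox libraries, in 4 of 4 GM +dox libraries and in all 6 DM libraries. The GM no dox library without one was replicate 1, the shortest kept list. The difference was 22.9 (SE 6.37, adjusted p = 0.167, limma), and it was 31.3 without dox, where the groups did not overlap (adjusted p = 0.373), and 14.6 with dox (adjusted p = 0.811). Over both arms it was 9.14 when peaks were ranked by fold enrichment (adjusted p = 0.724) and 20.3 with all deposited peaks (0.918).

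The shared promoter of Hist1h2ah and Hist1h2bk differed in the other direction. Its 8 GM values lay between 70.3 and 90.7, with 81.6, 75.1, 90.7 and 87.7 without dox and 74.8, 84.1, 70.3 and 77.6 with dox. In DM it lay at 63.2, 18.4 and 74.2 without dox and at 12.2, 49.5 and 72.1 with dox, so that 4 of 6 DM libraries were below every GM library. The difference was −32.0 (SE 9.91, adjusted p = 0.218, limma; exact permutation p = 0.00245 before adjustment). It was −41.2 within replicate numbers 1 and 2, with 1 kept DM library per arm, and −28.0 within 3 and 4. It shrank to −6.86 when peaks were ranked by fold enrichment (adjusted p = 0.895), to −13.5 with all deposited peaks (0.918) and to −12.5 when genes were ranked among promoters (0.102).

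Hist1h3g, an H3 gene, had GM values of 76.3, 55.4, 73.1 and 42.9 without dox and 35.5, 40.6, 55.4 and 64.6 with dox. Its DM values were 15.8, 72.3 and 2.65 without dox and 9.42, 28.2 and 31.1 with dox, and all but DM no dox replicate 3 were below the GM range. The difference was −28.9 (SE 10.5, adjusted p = 0.287, limma). Without DM no dox replicate 3 its adjusted p was 0.0730, the lowest of any member in any fit. The difference shrank to −2.60 when peaks were ranked by fold enrichment (adjusted p = 0.966), to −11.7 with all deposited peaks (0.918), to −11.3 with half-length lists (0.629) and to −11.0 when genes were ranked among promoters (0.331).

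The shared promoter of Hist1h2ad and Hist1h2bf lay at 26.9, 16.6, 47.9 and 36.0 in GM no dox and at 0, 22.9, 0 and 31.4 in GM +dox. In DM it lay at 21.5, 33.1 and 67.2 without dox and at 35.8, 48.4 and 45.8 with dox. The groups overlapped without dox and did not with dox. The difference was 19.2 (SE 8.17, adjusted p = 0.351, limma) and was −2.07 when peaks were ranked by fold enrichment, 8.15 with all deposited peaks and 12.6 without DM no dox replicate 4.

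**Figure D5:**
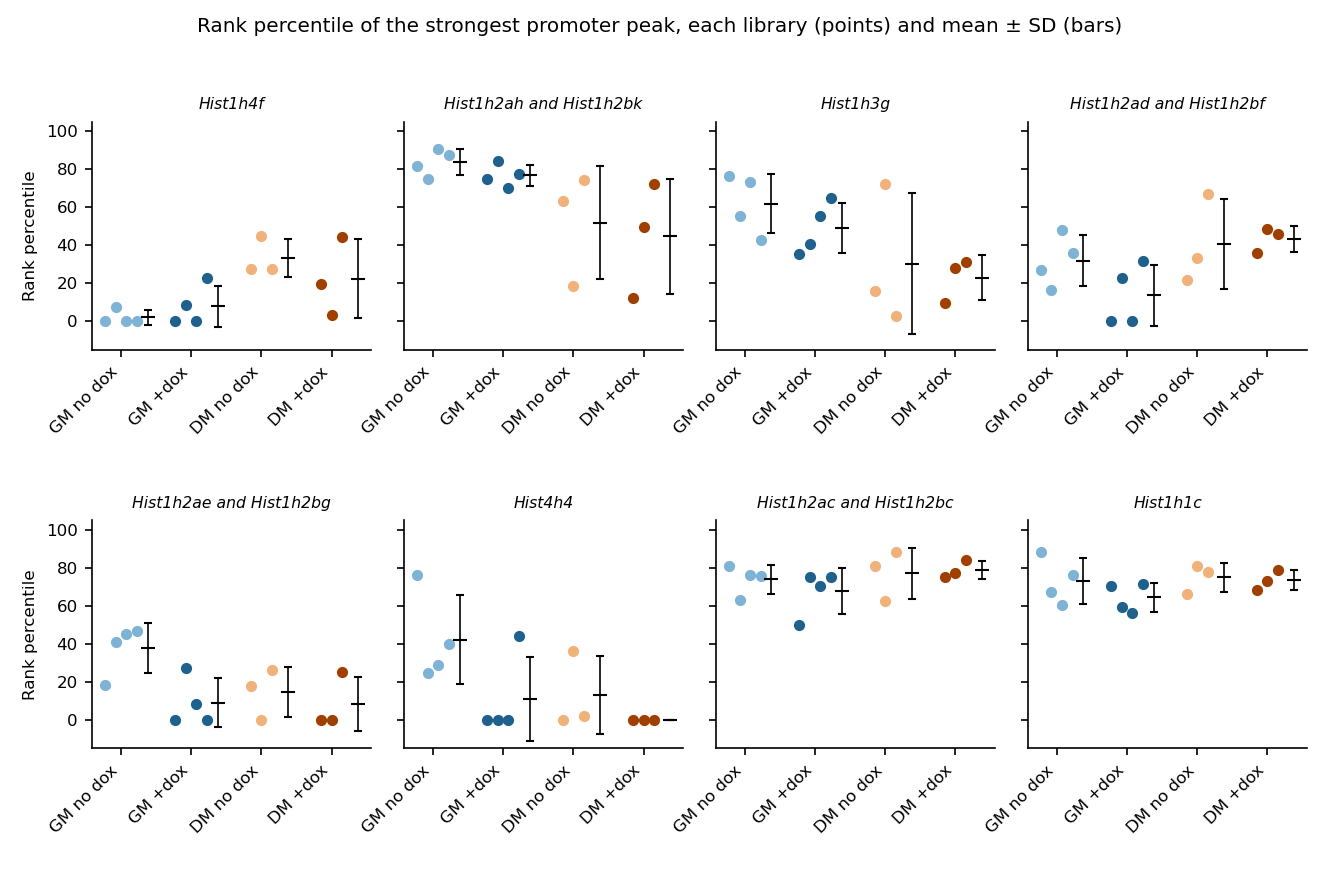
Rank percentile (vertical axis, 0 = no peak) of the strongest promoter peak of 8 histone promoters in each kept library, by group, with the group mean ± SD beside the points (n = 4 in GM, n = 3 in DM). Hist1h4f sits higher in DM, the Hist1h2ah and Hist1h2bk promoter and Hist1h3g sit lower in most DM libraries, and the Hist1h2ac and Hist1h2bc promoter stays high throughout. The Hist1h1c values are those of a peak within 1 kb of the start whose summit lies past the stop codon.

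Within the dox arms the result was similar. Without dox no member and no gene (0%) passed an adjusted p of 0.05, while 5 members (1 higher, 4 lower) and 7.86% of genes had an unadjusted p under 0.05 and 3 members, against 3.23% of genes, were so by exact permutation. The 2 sides did not overlap for 3 members, Hist1h4f above and the Hist1h2ah and Hist1h2bk pair below, against 7.31% of genes. With dox no member and 0.0457% of genes passed, 4 members and 6.37% of genes had an unadjusted p under 0.05 (0 members and 3.11% of genes by exact permutation), and the sides did not overlap for 5 members against 7.02% of genes. These 5 were the pair Hist1h2ad and Hist1h2bf and the pair Hist1h2ac and Hist1h2bc, higher in DM, and Hist1h3g, lower. Each pair shares 1 peak, so these counts of members, and those before adjustment in each arm, hold fewer separate measurements than genes. The interaction of medium and dox gave no member and 0% of genes, and 0 members against 2.16% of genes before adjustment.

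The effect of MyoD1 induction was compared within each medium. In proliferating cells no member and 0% of genes passed an adjusted p of 0.05 (limma), and 4 members, all lower with dox, had an unadjusted p under 0.05 against 3.46% of genes, with 0 members and 1.29% of genes by exact permutation. Of these 4, Hist1h2ae and Hist1h2bg share 1 peak. The sides did not overlap for 0 members and 1.29% of genes. The median difference was −8.12 for members, with 8 above and 23 below 0, and 0.0901 for all genes tested. GM +dox replicate 1 had the fewest members with a peak in the equal-length lists, 15, but 38 among all deposited peaks. Without that library the medians were −7.56 and 2.05. With all deposited peaks, of which +dox lists held more, they were 7.18 and 13.9. In differentiating cells no member and 0% of genes passed, no member and 2.96% of genes had an unadjusted p under 0.05, and the medians were −6.10 and 0.920 (11.7 and 13.5 with all deposited peaks). There the 3 against 3 libraries cannot give a two-sided exact permutation p below 0.1, so 0 members and 0% of genes were under 0.05 by that test. The sides did not overlap for 1 member, Hist1h2bm, against 7.04% of genes. Hist1h2bm lay at 67.9, 78.6 and 63.0 without dox and at 40.9, 52.6 and 58.1 with dox. The members' median was 0.797 without DM no dox replicate 4, 0.386 without DM +dox replicate 2 and −12.2 without DM +dox replicate 4.

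The lowest p in proliferating cells was that of the promoter shared by Hist1h2ae and Hist1h2bg. It lay at 18.1, 40.8, 45.1 and 46.6 without dox and at 0, 27.3, 8.52 and 0 with dox, and the ranges overlapped. The difference was −28.7 (SE 9.16, adjusted p = 1, limma). Hist4h4 lay at 76.1, 24.6, 28.6 and 39.6 without dox and had a peak with dox only in replicate 4, at 43.9, a difference of −31.2 (SE 13.2, adjusted p = 1, limma). Among all deposited peaks it had one in all 14 kept libraries.

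In differentiating cells the lowest p values were those of Hist1h4d and of the promoter of Hist1h2bh. Hist1h4d lay at 0, 25.3 and 55.2 without dox and at 0, 20.1 and 1.31 with dox, a difference of −19.7 (SE 11.4, adjusted p = 1, limma) that was −5.52 without DM no dox replicate 4 and −33.1 without DM no dox replicate 2. The Hist1h2bh promoter lay at 52.6, 35.5 and 63.7 without dox and at 6.59, 27.4 and 52.6 with dox, a difference of −21.8 (SE 12.6, adjusted p = 1, limma) that was −10.6 without DM +dox replicate 2 and −33.6 without DM +dox replicate 4. Both pairs of groups overlapped.

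Genes that work with the replication-dependent histones were read on the same scale. Of 12 replication-independent variant genes, 11 were matched, 8 were tested and none passed in any comparison (0 at an unadjusted p under 0.05 between DM and GM), with a median DM minus GM difference over both arms of 9.94. H2afj (26.1, SE 13.3, adjusted p = 0.439, limma) and H3f3a, which encodes H3.3 (15.1, SE 13.1, adjusted p = 0.604), had the lowest p. All 16 genes of histone transcription and 3′ end processing were tested, with a median of 10.2, none past the threshold and 3 at an unadjusted p under 0.05, as 13.1% of all genes tested were. They were led by Lsm11, part of the U7 snRNP that cuts histone transcripts (27.2, SE 8.98, adjusted p = 0.249), and Npat (8.95, SE 3.13, adjusted p = 0.278). Of 12 histone chaperone genes, which carry histones to and from DNA, none passed, 1 had an unadjusted p under 0.05, the median was 6.46, and Daxx (14.2, SE 4.78, adjusted p = 0.258) and Npm1 (23.3, SE 10.8, adjusted p = 0.388) had the lowest p. The median over all genes tested was 5.47.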

How the data were processed

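ATAC-seq libraries were processed by the authors with the nf-core/atacseq pipeline against mm10, with blacklisted regions removed and narrow peaks called by MACS2 in each library. deepTools, MACS2 and mm10 are the names in the submitters' processing notes. Each deposited list gives a score, the fold enrichment (a ratio), and the −log10 of p and of q. The deposited −log10 p ranked peaks within a list, the fold enrichment ranked them in an alternative, and the score and −log10 q were used only to describe the lists. The lowest deposited −log10 q was 1.30. No counts per region were used, so depth is unknown and no count test was run.

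Lists were shortened to the 14710 strongest peaks, as many as the shortest kept list held. Genes came from GENCODE M21 and sequence from GRCm38. The 8755 protein-coding genes with a promoter peak in at least 3 of 14 kept libraries were fitted with limma 3.58.1 (R 4.3.3) on 4 group means, two-sided, with Benjamini-Hochberg adjustment over those genes. The fit was tried on simulated data with independent normal values and known changes. Those data lack the floor at 0 and any link between same-numbered libraries. They therefore do not show how the p-values behave on the real lists. A gene without a peak was set to 0, so values near 0 carry the cut of the list. Exact permutation of the libraries, all 16 libraries, other list lengths, windows, scales and rankings, a replicate block and each library left out were alternatives. Tiles of 100 bases were mapped to the chromosomes with minimap2. No peak ran past a chromosome end.

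Same-numbered libraries deviated together with every correlation over 0.1 for DM against GM with dox (0.193 to 0.488) and dox in GM (0.107 to 0.295), and not for the other comparisons, where the lowest were 0.0715 and 0.0796. The block changed no member's call.

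The members, the lists of other genes and the tests were chosen with earlier results of these data known. Genes were named by rule: the 2 highest members of each class, the 6 members of lowest p between DM and GM, the 2 of lowest p in each single comparison, members without any peak, the Hist3 and Hist4 members, testis-type members, and 2 genes of each other list. Other members with values were named for sharing a peak, for groups that did not overlap or for lying outside these counts.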

Additional observations from a re-analysis of the deposited data

Results flagged for a closer look

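Values of the named members and the 2 summaries were screened in the groups of 4 kept libraries, 38 screens in all, for a library far from the other 3 by Dixon's criterion, which chance meets in about 1 of 20 groups of continuous values. It was met 3 times. Hist4h4 lay at 43.9 in GM +dox replicate 4 and had no peak in the other 3 libraries of that group. Hist1h4d lay at 21.2 in GM no dox replicate 4 and at 0 in the other 3. Hist1h4f lay at 7.65 in GM no dox replicate 2 and at 0 in the other 3. In each case the libraries at 0 had no peak for the gene within the equal-length list, and 1 value against 3 zeros always meets the criterion, so that rate does not apply to them.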

How the results depend on the processing

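No member passed an adjusted p of 0.05 in any of 173 alternative fits and tests (28 or 29 for each comparison), and the lowest adjusted p of a member among them was 0.0730. Of these, 11 were fits within replicate numbers 1 and 2, with 1 kept DM library per arm, or exact permutations, with 20 to 70 labellings in single comparisons, and such small designs say little about stability, which leaves 162. With the replicate number as a block, 0 members were called in each of the 6 comparisons, and the median DM minus GM difference over both arms was −3.42 for members and 2.80 for all genes tested. The counts of members called were 0 throughout when each replicate was left out. The median difference of the members between DM and GM changed sign with the processing (0.440 as reported, −9.91 with a window of 500 bp, 2.21 with all deposited peaks). The number of all genes called between DM and GM, 31 as reported, was 0 when ranked by fold enrichment or within replicate numbers 1 and 2, 8 within numbers 3 and 4, 3 on the log2 rank, 11 with all deposited peaks, 20 with all 16 libraries or half-length lists, and 49 when genes were ranked among promoters. It was 2 without DM +dox replicate 3 and 81 without DM +dox replicate 2, the lowest and highest with 1 library left out. In the other comparisons it was at most 12 without dox (0 as reported), 22 with dox (4 as reported, and 0 with all 16 libraries), 2 and 8 between dox and vehicle in GM and DM, and 6 for the interaction (0 as reported in each).

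The share of members with a peak differed between DM and GM by −6.16 points with all 16 libraries, which include the list of 1287 peaks, and by −2.49 to 2.18 under the other alternatives (−0.808 to 2.18 with 1 library left out). The difference of the median percentile was −11.2 to 0.515, and −8.68 to −0.319 with 1 library left out. Directions reversed for Hist1h2ad and Hist1h2bf between DM and GM when ranked by fold enrichment (−2.07 each), and, with all deposited peaks, for Hist1h2ae and Hist1h2bg with dox in GM (7.18 each) and for Hist1h4d and Hist1h2bh with dox in DM (17.7 and 5.94). The cause was not tested. Peak lists hold no read counts, so a promoter just under a list's cut and one without signal cannot be told apart.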
